A study of Mus musculus with 5 samples.

Results

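The regions described here are 1 kb stretches of the mouse autosomes that are both dense in CpG dinucleotides and methylated, a combination that most CpG-dense DNA does not show. They were chosen by 4 criteria: position on an autosome, at least 40 CpG positions listed in any library, at least 3 CpGs with a second count (explained below) of 10 or more in all 5 libraries, and a pooled methylation level of at least 50% in K9M replicate 2. The criteria were met by 1702 of 152678 measured autosomal tiles, or 13.1% of the 13005 measured tiles with 40 or more listed CpGs. Because the level in K9M replicate 2 chose the tiles, that library is given as a description only and enters no comparison of K9M with another group.

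The 5 libraries come from reduced representation bisulfite sequencing, in which the enzyme MspI and bisulfite treatment yield methylation calls at CpG-rich fragments. One library is WT, labelled wildtype, for which the labels name no doxycycline and which has no replicate. The other 4 come from mice given 2 mg/ml doxycycline in the drinking water. In both K36M libraries a dominant negative histone H3.3 altered at lysine 36 is labelled, and in both K9M libraries one altered at lysine 9. The labels give no promoter or driver line for the mutant histone and no age. They do not say that replicates came from different mice, and p-values here reflect a spread among libraries that could be technical alone. Doxycycline and genotype cannot be told apart in a comparison with WT. The cells are called HSCs (hematopoietic stem cells) in one field and cells sorted from peripheral blood in another.

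CpG islands, the CpG-dense DNA at many gene starts, are usually free of DNA methylation. Known exceptions are germline genes shut off in body tissues, imprinted gene starts, and the CpG-rich promoters of transposable elements such as young LINE-1 elements and endogenous retroviruses. Methylation of histone H3 at lysine 36 recruits the enzymes DNMT3A and DNMT3B, which place new DNA methylation, and methylation at lysine 9 marks silenced repeats. Lysine-to-methionine mutants of these residues act as dominant inhibitors of the matching histone methyltransferases.

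Levels are relative levels, in percent of a library's plateau. The deposited fraction was near 55% at fully methylated CpGs in 4 libraries and near 100% in K9M replicate 2. At 122547 such CpGs the median deposited value was 56.8% in K9M replicate 1 and 100.0% in K9M replicate 2. WT had 54.4% there, and the K36M libraries 53.2% and 55%. The methylated count was therefore divided by a second count, the deposited total minus the methylated count (the total itself in K9M replicate 2), and by the ratio reached in the most methylated tiles of that library. A relative level can pass 100%, and a change that scales a whole library cannot be seen on it. The median second count per CpG over the 1702 tiles was 57.1 in WT. K36M replicates 1 and 2 had 42.2 and 54.4, against 44.1 and 54.6 for those of K9M. The median tile had 49 listed CpGs, 29 of them measured, and the tiles held 51755 measured CpGs in all.

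Most of these tiles shared their CpG spacing with other tiles, as repeated copies of a sequence would. Each run of 9 consecutive listed CpGs was reduced to its 8 gaps in base pairs, read in either direction. Of the 1702 tiles, 1458 (85.7%) held a gap string that at least 5 of them carried. Among the 11303 other CpG-dense tiles, 492 (4.35%) held a string shared by at least 5 of their own number. No annotation of repeats in the mm9 build was used here, so the sequence families are named by their spacing. Pattern A was held by 543 tiles, pattern B by 423 and pattern C by 144, and 36 tiles held pattern D.

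Matches to these patterns also occur in promoter sequences of RefSeq (GRCm38.p6). The 3 stretches printed next are cut from promoter windows, 250 bases before to 50 after a start, and capitals mark the CpGs that belong to shared gap strings. The first is 214 bases from the window of Gm35240 (chromosome 12, plus strand). Its most shared string was held by 373 tiles, 361 of them with pattern A.
Gm35240: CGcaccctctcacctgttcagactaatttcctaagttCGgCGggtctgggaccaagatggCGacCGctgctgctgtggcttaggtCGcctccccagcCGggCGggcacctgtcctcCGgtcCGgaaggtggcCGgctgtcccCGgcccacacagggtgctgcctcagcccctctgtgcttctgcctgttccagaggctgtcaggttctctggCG
The second is 210 bases from the window of Gm36816 (chromosome 6, minus strand). The most shared string within this stretch was held by 62 tiles, 59 of them with pattern B, and the whole window also holds pattern B itself.
Gm36816: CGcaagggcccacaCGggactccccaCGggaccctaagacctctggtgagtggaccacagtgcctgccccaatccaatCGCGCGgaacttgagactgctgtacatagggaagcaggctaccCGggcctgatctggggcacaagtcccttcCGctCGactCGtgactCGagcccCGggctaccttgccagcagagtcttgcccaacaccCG
The third is 208 bases from the window of Gm5636 (chromosome X, minus strand). Its most shared string is pattern C, held by all 144 tiles of that pattern.
Gm5636: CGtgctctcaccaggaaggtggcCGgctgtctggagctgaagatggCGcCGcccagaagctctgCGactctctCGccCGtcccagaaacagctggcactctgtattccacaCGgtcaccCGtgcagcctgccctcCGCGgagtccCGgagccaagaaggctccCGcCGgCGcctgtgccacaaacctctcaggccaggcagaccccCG
The capitals show how closely the CpGs lie, at 13, 13 and 16 CpGs in the 3 stretches.

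A further 5 sequences are promoters that lie on the tiles themselves. Each is the 250 bases before the RefSeq start, placed on mm9 by matching its CpG spacing to listed CpGs, and capitals mark the CpGs listed in the files. Hoxa5 and Gm24463 are shown because their tiles were lower in K36M, Ddx4 and Mael because they are germline genes near full methylation, and Henmt1 because it lies close to the lower limit of the rule.
Hoxa5, chr6:52154587-52154836, minus strand: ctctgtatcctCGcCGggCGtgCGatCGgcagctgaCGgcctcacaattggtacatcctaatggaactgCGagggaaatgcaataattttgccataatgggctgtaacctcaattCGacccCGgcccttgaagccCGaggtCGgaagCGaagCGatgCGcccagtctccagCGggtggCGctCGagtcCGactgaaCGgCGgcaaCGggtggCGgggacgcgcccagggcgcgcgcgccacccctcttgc
Gm24463, chr9:88961417-88961666, plus strand: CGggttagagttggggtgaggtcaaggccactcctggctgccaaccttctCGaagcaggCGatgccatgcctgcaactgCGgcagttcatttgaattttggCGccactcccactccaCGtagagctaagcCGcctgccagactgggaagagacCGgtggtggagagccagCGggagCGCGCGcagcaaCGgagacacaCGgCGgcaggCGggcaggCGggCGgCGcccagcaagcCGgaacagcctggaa
Ddx4, chr13:113442519-113442768, minus strand: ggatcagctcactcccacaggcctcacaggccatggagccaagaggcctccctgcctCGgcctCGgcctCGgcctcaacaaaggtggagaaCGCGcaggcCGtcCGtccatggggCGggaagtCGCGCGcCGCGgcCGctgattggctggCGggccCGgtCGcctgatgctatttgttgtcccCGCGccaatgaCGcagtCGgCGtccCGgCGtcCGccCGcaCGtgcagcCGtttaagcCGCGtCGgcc
Mael, chr1:168168876-168169125, minus strand: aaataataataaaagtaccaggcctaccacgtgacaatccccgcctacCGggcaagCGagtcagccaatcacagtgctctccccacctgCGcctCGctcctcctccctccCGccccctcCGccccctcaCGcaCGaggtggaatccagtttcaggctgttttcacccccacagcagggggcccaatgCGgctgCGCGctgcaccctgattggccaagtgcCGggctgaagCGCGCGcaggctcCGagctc
Henmt1, chr3:108743225-108743474, plus strand: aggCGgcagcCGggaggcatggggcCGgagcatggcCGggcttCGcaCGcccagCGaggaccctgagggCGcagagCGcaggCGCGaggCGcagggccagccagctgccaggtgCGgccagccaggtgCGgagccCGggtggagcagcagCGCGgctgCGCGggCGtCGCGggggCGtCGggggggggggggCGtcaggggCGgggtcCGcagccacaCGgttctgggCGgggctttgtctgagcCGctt
The listed CpGs in these stretches number 22 for Hoxa5, 20 for Gm24463, 31 for Ddx4, 16 for Mael and 30 for Henmt1.

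As a whole the tiles were close to fully methylated in every library. The mean relative level over the 1702 tiles was 93.5% in WT, 92.5% and 93.3% in K36M, 92.2% in K9M replicate 1 and 93.9% in K9M replicate 2. At 80% or more lay 1629 tiles in WT, 1506 and 1568 in K36M, and 1539 in K9M replicate 1. Below 50% lay 7 tiles in WT, 15 and 22 in K36M and 5 in K9M replicate 1. The K36M mean of 92.9% ± 0.50 (SD, n = 2) differed from WT by -0.583 points, which is close to the spread between the K36M replicates. An exact two-sided permutation test gave p = 0.667 (n = 2 against 1), and the smallest p this design allows is 0.333. The sign of that difference turned with the scaling, to 0.594 points when the plateau was taken from the top 40% of tiles. K36M minus K9M replicate 1 was 0.725 points and K9M replicate 1 minus WT was -1.31 points, neither with a test. Their signs also turned, to -2.51 and 2.24 points on the deposited level, and the former to -1.27 points among tiles without shared spacing and to -0.000728 points at a second count of 20.

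Other CpG-dense tiles were nearly unmethylated, with mean levels of 1.95% to 2.22% over 11303 tiles. Sparser tiles at the same level threshold (20 to 39 listed CpGs, n = 9320) had means of 92.2% in WT, 90.8% and 92.2% in K36M and 91.8% in K9M replicate 1. In the full set of 114094 sparser tiles the means were 90.9%, 87.9%, 89.0% and 90.5% in the same order. The difference between K36M and WT was -2.39 points there and -0.583 points in the CpG-dense tiles. In the sparser tiles with 20 to 39 listed CpGs it was -0.721 points, close to the CpG-dense value. The difference between these classes was not tested.

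Tile by tile, calls required 10 points of difference and an adjusted p below 0.05, in a quasi-binomial model fitted to all 152678 autosomal tiles with Benjamini-Hochberg adjustment. Against WT, 11 of the 1702 tiles were lower in K36M, or 0.646% beside 0.586% of all tiles, a share near the background. None was higher, beside 0.0216% of all tiles. At an unadjusted p under 0.05 with 10 points, 14 were higher and 56 lower. The tiles were chosen at a high level and had a WT median of 94.1%, which left little room for a rise of 10 points. The balance of lower and higher tiles is therefore partly fixed by the choice, here and against K9M replicate 1. limma on relative levels called 0 in either direction. Against K9M replicate 1, 12 tiles (0.705%) were lower in K36M beside 0.965% of all tiles. None was higher beside 0.0688% of all tiles, with 12 higher and 26 lower at the unadjusted p. K9M replicate 1 was lower than WT in 1 tile and higher in 1 tile (0.0588% each), beside 0.0301% and 0.0544% of all tiles. Both of these calls compare 1 library with 1, the spread taken from the K36M pair. K9M replicate 1 belongs to the group of the library that chose the tiles. Every tile entered through the level of K9M replicate 2. A difference from K9M is therefore partly fixed by the choice at all 12 tiles. Of the 12 tiles, 3 (those near Mars1, Kcnk12 and Fam110a) lay below 50% in WT and in both K36M libraries. Those near Gfi1, Smg9, Gm24463 and Zfp503 lay below 50% in both K36M libraries but not in WT. The comparisons share libraries, so each is given with its own values.

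**Figure D1:**
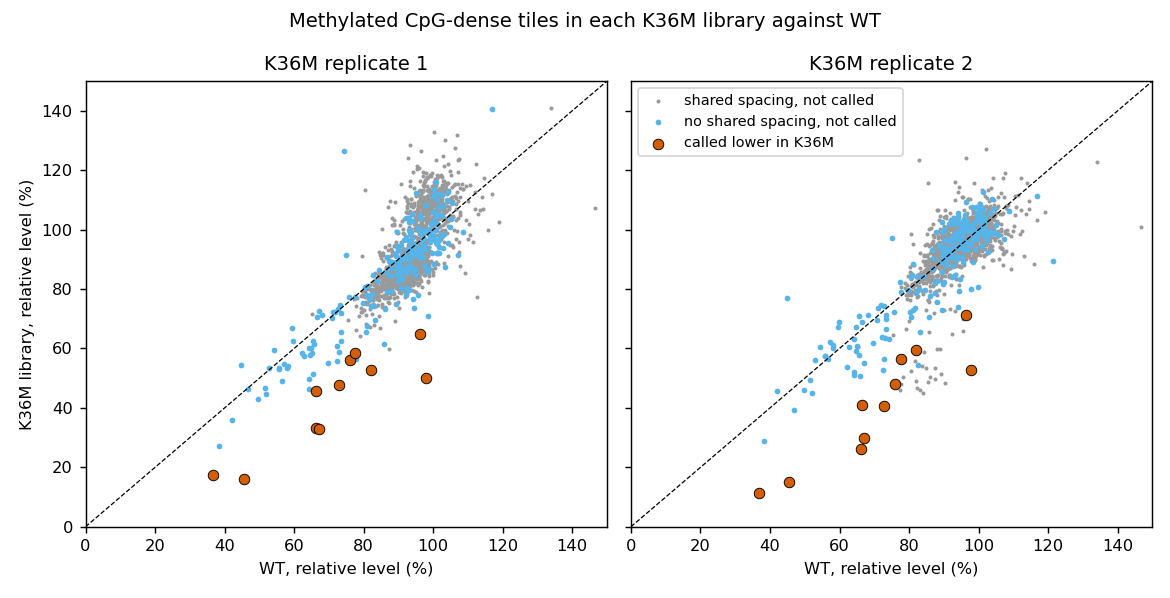
Relative level of each methylated CpG-dense tile in K36M replicate 1 (left) and replicate 2 (right), on the vertical axis, against WT, on the horizontal axis, both in percent of the library's plateau. Each point is a tile, the dashed line marks equal levels, 1 tile above 150% is left out, and the 11 tiles called lower in K36M (filled orange) all lie among those with no shared spacing.

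The tiles with shared spacing were mostly at high levels and none was called in K36M against either other group. Their largest spacing group joined 1381 tiles on 19 chromosomes through shared strings. The lowest of these 1381 tiles reached 77.7% in WT, 64.2% and 69.4% in K36M, and 69.6% in K9M replicate 1. Beyond the tiles that met every criterion, pattern A lay on 1416 tiles in all, of which 1415 were measured. The lowest level of any of them in any library was 63.9%. Pattern B had a lowest level of 70.8% over 1120 measured tiles, and pattern C 69.4% over 335. No measured tile with pattern A, B or C was therefore below 50% in any of the 5 libraries.

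Patterns A to C differed in level within a library, with the widest range of medians in K36M replicate 1 among WT, K36M and K9M replicate 1. Pattern A had a median of 92.9% in WT, 86.4% and 93.8% in K36M and 92.7% in K9M replicate 1. Pattern B had a median of 99.8% in WT, 109% and 100% in K36M and 99.2% in K9M replicate 1. In K36M replicate 1, 515 of 543 tiles of pattern A lay below WT and 38 of 423 tiles of pattern B did. In K36M replicate 2, 202 tiles of pattern A and 198 of pattern B lay below WT. The shift in K36M replicate 1 thus had opposite signs for the patterns and was not seen in the other K36M library, and its cause was not tested. Each count sets 1 library against 1. Tiles of a pattern, here and for pattern D below, are not replicates and may not be independent. Pattern C was lower, at 86.9% in WT, 82.3% and 85.8% in K36M and 82.2% in K9M replicate 1.

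**Figure D2:**
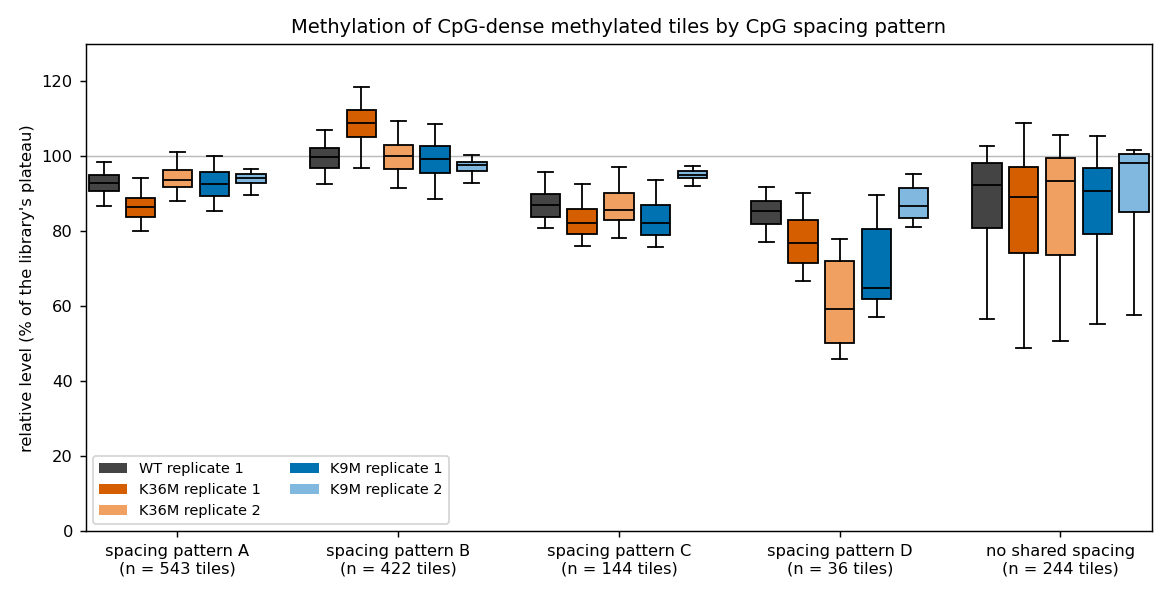
Relative level in percent of the library's plateau (vertical axis) for tiles of spacing patterns A to D and tiles with no shared spacing, with 1 box per library. Boxes span the quartiles with the median as a line and whiskers reach the 5th and 95th percentiles over tiles. K36M replicate 1 is low for pattern A (median 86.4%) and high for pattern B (109%), and pattern D is low in K36M replicate 2 (59.3%); the 1 tile that holds both A and B is drawn under A.

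A second spacing group of 56 tiles on 17 chromosomes had lower levels. Of these, 36 held pattern D, whose median was 85.4% in WT, 76.8% and 59.3% in K36M, 65.0% in K9M replicate 1 and 86.9% in K9M replicate 2. Both K36M libraries were below WT at 32 of the 36 tiles, and K9M replicate 1 was below WT at 33. The K36M replicates also stood apart from each other, since replicate 2 was below replicate 1 at 35 tiles. No tile of pattern D passed the test in K36M against WT, and the lowest adjusted p was 0.0666 (quasi-binomial model with limma's moderated dispersion). Leaving out K36M replicate 1 gave 5 calls among the tiles with shared spacing, and leaving out K36M replicate 2 gave 0. The other 20 tiles of the group had medians of 99% in WT, 97.4% and 99.5% in K36M and 95.9% in K9M replicate 1. Pattern D was found on 57 measured tiles in all, and 18 of these fell below 50% in at least 1 library, unlike patterns A to C.

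The single tile called lower in K9M replicate 1 than in WT holds pattern D. It lies at chr1:166154001-166155000, 24677 bp from the matched promoter of Slc19a2, a thiamine transporter gene. Its level was 87.3% in WT, 59.8% and 49.8% in K36M, 44.0% in K9M replicate 1 and 61.6% in K9M replicate 2. Both K36M libraries and K9M replicate 1 were below WT there. The K9M replicate 1 difference was -43.3 points with an adjusted p of 0.00978, from 1 library against 1 with the spread taken from the K36M pair, and the K36M difference of -32.5 points missed the threshold at 0.0666 in the same kind of model. The K9M call was not made at a second count of 5, with the top 40% plateau or with limma on relative levels.

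Tiles with shared spacing also formed the longest stretches of adjacent tiles. Of the 1702 tiles, 1421 stood alone and 281 lay in 112 runs. The longest run covered 13 tiles at chr3:93084001-93097000, 233918 bp from the matched promoter of S100a11, with means of 95.2% in WT, 92.1% and 93.1% in K36M and 89.4% in K9M replicate 1. A run of 9 tiles at chr3:6298001-6307000 had means of 102%, 109%, 100% and 102% in the same order. A run of 7 tiles at chr10:27538001-27545000 had means of 99.4%, 107%, 101% and 101%. The share of CpG-dense tiles that were methylated ranged from 6.58% on chromosome 19 to 21.9% on chromosome 3.

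The 244 tiles without shared spacing were more varied and lay nearer to genes. Their median distance to a matched promoter was 21033 bp, against 369558 bp for the tiles with shared spacing and 508.5 bp for other CpG-dense tiles. Their mean level was 87.6% in WT, 85.0% and 85.9% in K36M and 86.7% in K9M replicate 1. The spread over tiles was 15.2 points (SD) in WT and 23.7 and 19.3 points in K36M, against 6.47, 12.3 and 8.73 points for the tiles with shared spacing. The mean and spread of the 244 in K36M replicate 1 include a tile of 3 CpGs at 296%, which raises both. All 11 tiles lower in K36M than in WT and all 12 lower than in K9M replicate 1 were among the 244. These are 4.51% and 4.92% of the 244, beside 0.586% and 0.965% of all tiles. The split by spacing was made with these values known, and no test was made of it. The median second count per CpG was 47.9 in WT and 36.6 and 46.1 in K36M for the 244 tiles, against 59.6, 44.0 and 57.4 for the tiles with shared spacing.

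Among the tiles lower in K36M, genes are named by the nearest matched promoter, which need not be the nearest gene. Promoters of 9257 genes could be matched, and none on chromosome 18. Adjusted p-values below are from the quasi-binomial model across all tiles, with limma's moderated dispersion.

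The largest difference was at chr17:26576001-26577000, 24696 bp from Neurl1b, a ubiquitin ligase gene of the Notch pathway. Its level was 97.9% in WT, 50.0% and 52.7% in K36M, 95.7% in K9M replicate 1 and 92.8% in K9M replicate 2. The K36M libraries were both near the middle of the scale, and WT and K9M replicate 1 were near full methylation. The difference from WT was -46.6 points (adjusted p = 0.000227), and all 45 measured CpGs were lower in both K36M libraries.

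A tile 2863 bp from Gfi1, a transcriptional repressor gene active in blood stem cells and granulocyte development, was next, at chr5:108150001-108151000. It stood at 66.2% in WT, 33.3% and 26.1% in K36M, 83.7% in K9M replicate 1 and 89.9% in K9M replicate 2. The K36M libraries lay below WT and K9M replicate 1 lay above it. K36M minus WT was -36.4 points (adjusted p = 0.000585) and K36M minus K9M replicate 1 was -54.0 points (adjusted p = 3.76e-05). The latter difference is partly fixed by the choice of tiles. All 37 measured CpGs were lower in both K36M libraries than in WT.

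The tile at chr7:25162001-25163000 lies 22147 bp from Smg9, a nonsense-mediated decay gene. It had 67.1% in WT, 32.9% and 29.9% in K36M, 83.2% in K9M replicate 1 and 84.9% in K9M replicate 2, with WT between K36M and K9M replicate 1 as near Gfi1. The difference from WT was -35.7 points (adjusted p = 0.00014), with 45 of 46 CpGs lower in both K36M libraries.

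At chr10:126763001-126764000, 14658 bp from the methionyl-tRNA synthetase gene Mars1, WT was at 45.5%, K36M at 15.9% and 15%, K9M replicate 1 at 70.4% and K9M replicate 2 at 70.0%. This was the tile called in all 3 comparisons and the one called higher in K9M replicate 1 than in WT. K36M minus WT was -30.0 points (adjusted p = 2.09e-05), K36M minus K9M replicate 1 was -54.9 points (adjusted p = 6.95e-07), and K9M replicate 1 minus WT was 24.9 points (adjusted p = 0.05 after rounding, just under the threshold). The last call was not made at a second count of 5, with the top 40% plateau or with limma, and the tile entered through its K9M level. All 45 measured CpGs were lower in both K36M libraries. The next tile along, with 22 listed CpGs, stood at 104% in WT, 74.8% and 81.2% in K36M and 99.2% in K9M replicate 1.

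The tile at chr17:88145001-88146000, 51834 bp from the potassium channel gene Kcnk12, had K36M levels of 17.3% and 11.4%, the lowest K36M mean among the 11 tiles. WT was at 36.8%, K9M replicate 1 at 61.8% and K9M replicate 2 at 55.7%. The difference from WT was -22.4 points (adjusted p = 0.00217), over 20 CpGs that were all lower in both K36M libraries.

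Promoter tiles were among those lower in K36M. The tile at chr6:52154001-52155000 holds the promoter of Hoxa5, a homeobox transcription factor gene. Its level was 77.6% in WT, 58.3% and 56.5% in K36M, 83.0% in K9M replicate 1 and 86.8% in K9M replicate 2, so the K36M pair lay below WT and K9M replicate 1. K36M minus WT was -20.2 points (adjusted p = 0.0181), with 43 of 48 CpGs lower in both K36M libraries. The fall lay mainly at CpGs from -500 to -202 bp of the tile centre, outside the promoter stretch printed above. At -391 bp, WT had 85.9% and K36M 54.3% and 50.1%. Measured CpGs of the printed stretch, at 213 to 320 bp, mostly changed less. At 265, 298, 312 and 320 bp a K36M library lay above WT. A fall of the Hoxa5 promoter stretch itself is therefore not shown. The tile before the Hoxa5 tile, with 23 listed CpGs, stood at 78.8% in WT, 59.8% and 53.4% in K36M and 78.8% in K9M replicate 1.

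Another tile of the same chromosome, at chr6:52125001-52126000 and 29086 bp from the Hoxa5 start, had 72.4% in WT, 55.8% and 52.7% in K36M and 75.7% in K9M replicate 1. It passed the test against K9M replicate 1 (-21.5 points, adjusted p = 0.0356) and missed it narrowly against WT (-18.2 points, adjusted p = 0.0501). Of the 15 CpG-dense tiles measured from chr6:52108001 to chr6:52211000, which were looked at after these values were seen, 12 were at or below 10% in every library. The tile at chr6:52158001-52159000, under the level threshold, went from 20.8% in WT to 7.45% and 6.71% in K36M, with 24.7% in K9M replicate 1 (-13.7 points against WT, adjusted p = 0.00014).

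The other promoter tile lower in K36M is that of Gm24463, a lncRNA gene, at chr9:88961001-88962000. It had 72.8% in WT, 47.9% and 40.5% in K36M, 84.8% in K9M replicate 1 and 77.8% in K9M replicate 2. The difference from WT was -28.6 points (adjusted p = 0.0065), with 27 of 35 CpGs lower in both K36M libraries.

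**Figure D3:**
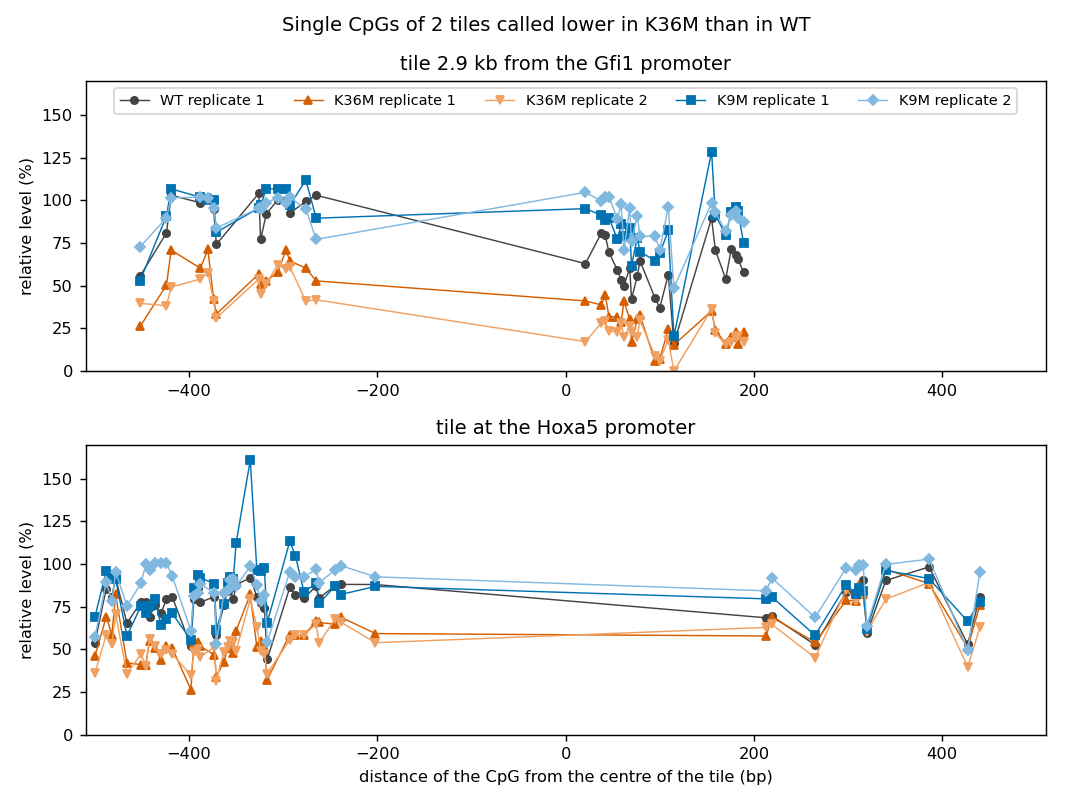
Relative level of each measured CpG (vertical axis, percent of the library's plateau) against its distance from the tile's centre (horizontal axis, bp), in each of the 5 libraries, for the tile near Gfi1 (top) and the Hoxa5 promoter tile (bottom). Lines join CpGs of a library; both K36M libraries lie below WT at all 37 CpGs of the upper tile and at 43 of 48 of the lower tile.

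The remaining 4 tiles lower in K36M than in WT also had K36M below WT and K9M replicate 1. Near Zfp503, a zinc finger gene 1677 bp away, the tile at chr14:22810001-22811000 had 66.3% in WT, 45.8% and 40.8% in K36M and 75% in K9M replicate 1 (adjusted p = 0.00836 against WT). At chr19:6904001-6905000, 10617 bp from the kinase gene Rps6ka4, the values were 96.3% in WT, 65.0% and 71.2% in K36M and 90.3% in K9M replicate 1 (adjusted p = 0.0153). At chr10:80069001-80070000, 16025 bp from the casein kinase gene Csnk1g2, they were 82.1%, 52.7%, 59.5% and 87.2% (adjusted p = 0.0249). At chr17:47605001-47606000, 31912 bp from AI661453, they were 76.0%, 56%, 47.9% and 69.7% (adjusted p = 0.0156). In each of these 4 tiles both K36M libraries lay below WT and K9M replicate 1. The difference from K9M replicate 1 did not pass the test near Rps6ka4 (-22.3 points) or AI661453 (-17.7 points). K9M replicate 1 was above WT near Zfp503 and Csnk1g2 and below it at the other tiles, differences that did not pass the test.

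The tiles called against K9M replicate 1 but not against WT were named after their values were seen. All of them, the one in the Hoxa5 neighbourhood included, had WT between the mutants. Their differences from K9M replicate 1 are partly fixed by the choice of tiles. Near Fam110a, 2630 bp away at chr2:151796001-151797000, WT was at 38.4%, K36M at 27.2% and 29.0% and K9M replicate 1 at 59.7% (K36M minus K9M replicate 1 -31.6 points, adjusted p = 0.000159), a difference partly fixed by the choice of tiles. Near Urm1, a gene for a ubiquitin-like tRNA modifier 18591 bp away at chr2:29701001-29702000, WT was at 72.8%, K36M at 58.9% and 56.3% and K9M replicate 1 at 78.5% (-20.8 points, adjusted p = 0.0427).

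**Figure D4:**
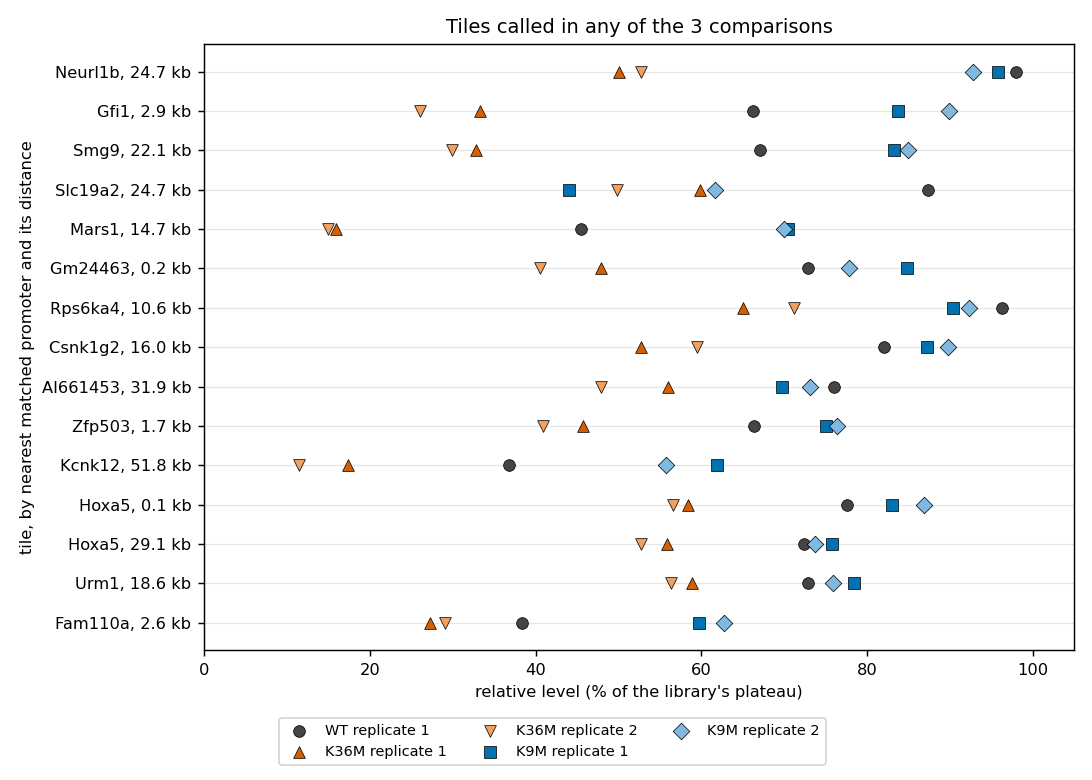
Relative level (horizontal axis, percent of the library's plateau) of the 15 tiles called in any comparison, 1 row per tile, named by the nearest matched promoter and its distance, with 1 symbol per library. Both K36M symbols lie to the left of WT and K9M replicate 1 in every row but that of Slc19a2, where K9M replicate 1 is at 44.0%; K9M replicate 2 chose the tiles and is drawn as a description.

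The calls against WT depended on the libraries and on the test. All 11 held without K9M replicate 1 and without K9M replicate 2, 9 held without K36M replicate 1 and 7 without K36M replicate 2, where a total of 15 and 7 tiles were called. limma on relative levels gave the 11 tiles adjusted p-values of 0.445 to 0.503. WT has no replicate, so its spread is taken from the mutant pairs.

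Promoters lay on few of the methylated tiles, and 3 of the 23 genes found are on the germline list used here. A matched promoter was found on 21 of the 1702 tiles (1.23%), against 5293 of the 11303 other CpG-dense tiles (46.8%). The 21 tiles carried promoters of 23 genes, 18 of them protein-coding, and all 21 were without shared spacing. A promoter was kept only where it matched 1 place, which removes promoters on repeated spacing, and 7 genes whose promoters matched several places had matches on methylated tiles. Their mean level was 84.9% in WT, 79.7% and 81.9% in K36M, and 82.9% in K9M replicate 1. Among them 2 were called lower in K36M than in WT, Hoxa5 and Gm24463. Without K36M replicate 2 neither was called, at adjusted p-values of 0.127 and 0.0813 in the quasi-binomial model with limma's moderated dispersion.

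Near full methylation stood the germ cell RNA helicase gene Ddx4, at 101% in WT, 104% and 101% in K36M and 98.2% in K9M replicate 1. Mael, a gene of the piRNA pathway that silences transposons in germ cells, had 101% in WT, 95.2% and 94.5% in K36M and 89.4% in K9M replicate 1. One tile is shared by the promoters of Tex14, which acts at the bridges between germ cells, and Rad51c, a recombination repair gene, and had 96.5%, 98.5%, 109% and 91.2%. None of these differences passed the test, with adjusted p-values of 1 in K36M against WT.

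The testis genes D1Pas1, Dmrtb1 and Hsf5 were alike, at 102%, 96.2% and 92.2% in WT. D1Pas1 had 96.7% and 99.9% in K36M, Dmrtb1 99.5% and 95.9%, and Hsf5 97.5% and 92.4%. Zglp1, a germ cell zinc finger gene, had 94.9% in WT and 86.8% and 95% in K36M. The values of 4933428G20Rik were 98.2% in WT and 93.8% and 108% in K36M, and those of Gm40453 were 92.1%, 96.9% and 93.5%. Mcts2, an imprinted retrogene, had 92.9% in WT, 96.3% and 102% in K36M and 96.8% in K9M replicate 1.

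Boll, Meioc, Henmt1, Nav1, Plekhg4 and Gm15609 complete the set and were named after their values were seen. Boll, Meioc and Henmt1, which act in germ cells, had intermediate levels. Boll had 65.5% in WT, 62.5% and 70.8% in K36M and 61.2% in K9M replicate 1. Meioc had 59.4%, 67.0%, 67.4% and 67.4% in the same order. Henmt1, whose product methylates piRNA ends, had 56.6%, 48.9%, 56.4% and 53.2%. WT lay within the range of the K36M libraries and K9M replicate 1 at Boll, just above it at Henmt1 and below it at Meioc, and no difference passed the test.

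At Nav1, a neuron navigator gene, and at Plekhg4, both K36M values lay below WT and the difference did not pass the test. Nav1 had 85.8% in WT, 61.5% and 70.6% in K36M and 83.9% in K9M replicate 1 (adjusted p = 0.353). Plekhg4 had 64.3%, 46.3%, 52.0% and 57.6% (adjusted p = 0.126). The tile of Tmem267 and 3110070M22Rik had 86.2% in WT, 73.2% and 77.8% in K36M and 72.7% in K9M replicate 1, and the lncRNA genes Gm15609, Gm35510 and Gm13205 had 71.9%, 82.4% and 94.8% in WT.

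**Figure D5:**
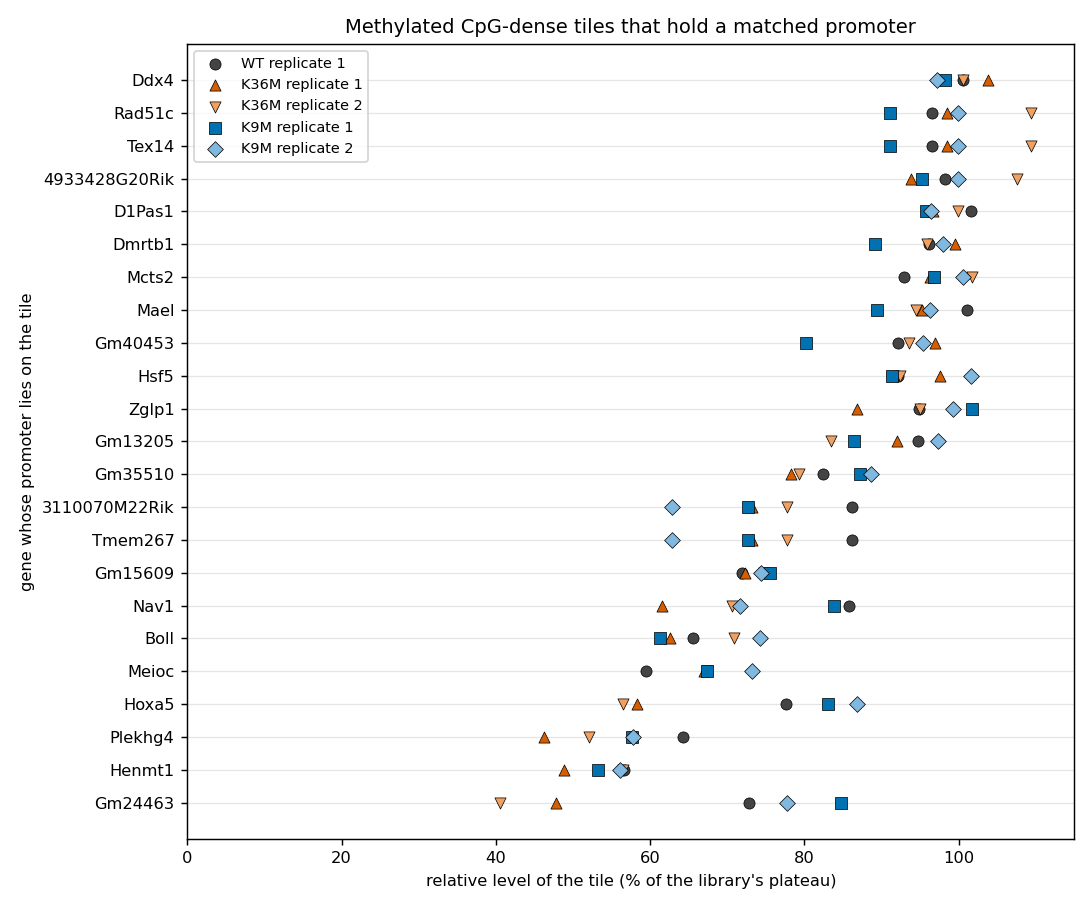
Relative level (horizontal axis, percent of the library's plateau) of the tiles that hold a matched promoter, 1 row per gene and 1 symbol per library; Tex14 and Rad51c, and Tmem267 and 3110070M22Rik, share a tile. WT lies among the K36M libraries and K9M replicate 1 at Ddx4 and Boll, and both K36M symbols lie apart to the left at Hoxa5 and Gm24463.

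In the gene lists chosen for this work, methylated CpG-dense promoters were found in the germline and imprinted lists and in neither of the other lists. Matched promoters in general lay on 21 methylated tiles and on 5293 other CpG-dense tiles. Finding none in a short list is therefore near the general share. The difference between the lists was not tested, and they were chosen with earlier results known. Of 53 germline genes, 20 had a matched promoter, 7 of these lay in a measured CpG-dense tile, and 3 were on a methylated one (Ddx4, Mael, Tex14). A further 10 had levels of 50% or more in K9M replicate 2 in tiles with fewer than 40 listed CpGs, such as Sycp1, a synaptonemal complex gene, at 92.5% in WT and 101% and 92.8% in K36M. The other CpG-dense germline promoters were low or partial, with Dazl at 33.0% and Smc1b at 26.6% in WT and Ddx20 and Ddx25 under 1%.

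Of 40 imprinted genes, 11 had a matched promoter and 8 lay in a measured CpG-dense tile, 1 of them methylated (Mcts2). Partial levels stood under the threshold at Plagl1 (46.7% in WT, 48.4% and 46.1% in K36M), Commd1 (38.2%, 40.4% and 41.1%) and Igf2r (37.1%, 43.8% and 42.2%). Of 34 blood genes 8 and of 27 chromatin genes 13 lay in CpG-dense tiles, and none was on a methylated one, as for most CpG-dense promoters. Runx1, a blood stem cell transcription factor gene, had 1.27% in WT, and Dnmt3b had 0.426%.

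Sequence motifs were searched in the 24 promoter windows that lie on the methylated tiles (250 bases before to 50 after the start, both strands; neither motif contains the other). The E-box CACGTG was in 6 of 24 windows (25%), against 736 of 6746 windows on other CpG-dense tiles (10.9%) and 7.17% of 32544 RefSeq windows. Its carriers were Ddx4, Mael, Zglp1, Mcts2, 4933428G20Rik and Gm24463. The E2F-type core TCCCGC was in 11 of 24 windows (45.8%), against 48.7% on other CpG-dense tiles and 20.1% of all RefSeq windows. These are letter matches only, and a window of Gm24463 was counted for each of its 2 starts. The windows of Tex14 and Rad51c also overlap, and both were counted for TCCCGC. Those of Tmem267 and 3110070M22Rik overlap too, so the 24 windows are not all separate DNA.

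Few tiles lay near the level threshold that chose them. In K9M replicate 2, 1600 of the 1702 tiles (94.0%) were at 80% or more and 102 between 50% and 80%, of which 56 were among the 244 without shared spacing. Of the remaining CpG-dense tiles, 390 were at 10% to 50% and 10913 below 10%. Just inside, at 50.5%, 51.5% and 51.8% in K9M replicate 2, were tiles with WT levels of 52.0%, 46.8% and 69.7%. Just outside, at 49.9%, 49.3% and 48.6%, were tiles with WT levels of 34.4%, 48.3% and 52.4%.

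Depth differed widely between tiles. The 3 deepest tiles had a mean second count per CpG of 792, 679 and 610, and the 3 shallowest had 16.1, 15.5 and 13.8. The deepest, at chr4:109859001-109860000, belonged to the largest spacing group and had 96.6% in WT, 87.5% and 94.2% in K36M and 92.1% in K9M replicate 1. The shallowest, at chr6:76797001-76798000, rested on 3 CpGs and had 85.7%, 89.3%, 94.3% and 77.2%. One tile of 3 CpGs at chr13:42190001-42191000 reached 296% in K36M replicate 1, with 270 methylated and 75 second counts, against 122% in WT and 89.4% in K36M replicate 2.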

How the data were processed

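Methylation was measured in 5 mouse libraries by reduced representation bisulfite sequencing. Tools listed in the submitters' processing notes are BSMAP and cutadapt, with mm9 as build; versions, filters and deduplication are not given in the sources used here. Per the values in the deposited tables, every CpG carries a fraction (its methylation) beside a total count, and no source says how the authors formed either. From the deposited counts, the methylated count (level times total, rounded) and the second count were computed. Their ratio was scaled by a plateau per library, its median in the 20% of tiles ranking highest on average (1.23 in WT, 1.22 and 1.26 in K36M, 1.37 and 0.954 in K9M). PCR reads carry no molecular identifiers, and counts cover counting error only.

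Tiles were tested with a logistic model on both counts (plateau as offset, quasi-binomial dispersion moderated with limma 3.58.1 in R 4.3.3, not below 1). K36M against WT used all 5 libraries (2 residual degrees of freedom), and comparisons with K9M replicate 1 used 4 (1 residual degree). limma on relative levels was an alternative. The scripts were tested on simulated data. Gene names come from RefSeq promoter sequences (GRCm38.p6): of 14272 with 10 or more CpGs, 10492 matched listed mm9 CpG spacing at 1 place, on the same chromosome. Of 10473 neighbouring matches, 10472 kept the RefSeq order. No GRCm38 coordinate is printed. Named tiles are those called (up to 10 lower and 5 higher against WT, 5 each way otherwise), those at the level threshold, the 3 longest runs and the depth extremes; named genes are on the gene lists, are called, or have the 10 highest levels among other promoters on the tiles. The spacing groups were added after the data had been seen. The tiles and lists were chosen with earlier results of these data known. Tiles on the sex chromosomes were left out.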

Additional observations from a re-analysis of the deposited data

Results flagged for a closer look

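The tile near Mars1 on chromosome 10 was flagged because the mutants moved in opposite directions from WT. K36M minus K9M replicate 1 was -54.9 points there, the difference itself tested in the quasi-binomial model with limma's moderated dispersion (adjusted p = 6.95e-07). K36M was lower than WT in 2 of 2 libraries, and K9M replicate 1 was higher. The tile was below 50% in WT and K36M and was admitted through the level of K9M replicate 2, so a difference from K9M is partly fixed by the choice of tiles.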

How the results depend on the processing

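The tiles lower in K36M than in WT numbered 11. They numbered 20 of 3792 tiles at 30 or more listed CpGs, 6 of 806 at 50 or more, and 0 with limma on relative levels. Leaving out 1 mutant library gave 7 to 15. The replicate number used as a block gave 3 calls and a mean K36M minus WT of -1.19 points. The number differences of K36M and K9M had a correlation of 0.0796 over the tiles. From 2 pairs this cannot show whether the numbers pair the samples, so the fall in calls with the block cannot be set aside. Tiles higher in K36M than in WT numbered 1 at a second count of 20. Tiles lower in K36M than in K9M replicate 1 numbered 23 at 30 or more listed CpGs and 0 with limma, and 2 were higher at 30 or more. Tiles lower in K9M replicate 1 than in WT numbered 0 at a second count of 5, with the top 40% plateau and with limma, and 2 at 30 or more listed CpGs. They also numbered 0 at 50 or more listed CpGs, at a level of 70% or more, with tiles chosen by K9M replicate 1 and among tiles without shared spacing. There the called tile, near Slc19a2, is no longer among the tiles. It had 48 listed CpGs, shared spacing, 44.0% in K9M replicate 1 and an unscaled pooled level of 58.8% in K9M replicate 2. Tiles higher numbered 0 at a second count of 5, with the top 40% plateau, at a level of 70% and with limma, and 2 at a second count of 20 and at 30 or more. At 70% the called tile, near Mars1, drops out, at an unscaled pooled level of 66.8% in K9M replicate 2. The mean K36M minus WT was -1.15 points at a second count of 20, 0.594 with the top 40% plateau and -2.16 without shared spacing, and -0.937 to -0.23 without a K36M library. The mean K36M minus K9M replicate 1 was -0.000728 at a second count of 20, 1.56 with the top 40% plateau, -1.27 without shared spacing and -2.51 on the deposited level, and 0.371 to 1.08 without a K36M library. K9M replicate 1 minus WT was 2.24 on the deposited level. Apart from the tiles that dropped out by the choice, the cause of these changes was not tested. Leaving out a K36M library in the comparison with K9M replicate 1 leaves no residual degrees of freedom with K9M replicate 2 kept out, so no calls were made. The setting without shared spacing was chosen after seeing the data.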

Other observations

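CpG-dense tiles of the X chromosome, which entered no comparison, had pooled levels near the middle of the scale. A pooled level does not show whether single tiles were midway. Over 445 such tiles the pooled relative level was 53.7% and 56% in the K36M libraries and 54.8% in both K9M libraries. WT stood at 55%.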
